A study of Mus musculus with 7 samples.

Results

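Retinoid genes were followed in sorted mouse mammary cells: Aldh1a1, Aldh1a2 and Aldh1a3 (synthesis of retinoic acid), Crabp1 and Crabp2 (binding in the cytosol), Rara, Rarb and Rarg (nuclear receptors) and Cyp26b1 (breakdown). These 9 genes were chosen by name, and 8 of them were measured among the 17096 genes tested. Each was read from the probe set with the highest mean among those the platform annotation ties to a single symbol. Rarb had no such probe set in the annotation used here, so its level is not analysed here.

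The study profiled cells on 7 Affymetrix arrays. The luminal group (2 arrays) held YFP+ cells of K8CREERT2/RosaYFP mice, and the basal group (2 arrays) YFP+ cells of K5CREERT2/RosaYFP mice, both taken 8 weeks after tamoxifen. In such mice tamoxifen activates a Cre recombinase driven by the keratin promoter and switches on YFP in the cells that use it and in their progeny, so a group is defined by lineage label. The age of these mice is not given in the labels; they are called adult here. The embryonic group (3 arrays of 2000, 2000 and 813 cells) held CD49fHi Lgr5Hi cells of Lgr5-IRES-GFP female embryos at embryonic day 14, each array a pool of the females of a litter. CD49f is integrin alpha 6, high on cells attached to the basement membrane, and Lgr5 encodes a receptor that strengthens WNT signalling. The labels give no genotype, strain or agent beyond these. They mark the adult arrays as a reanalysis and give their tissue as embryonic mammary gland, against their titles; the titles were followed. The labels do not state that adult replicates are different mice, and the tests therefore speak of the spread among these arrays alone, which may be technical.

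Retinol enters cells from the circulation, is oxidised reversibly to retinaldehyde and then irreversibly to retinoic acid by the ALDH1A enzymes. Retinoic acid is carried by CRABP proteins, binds retinoic acid receptors that sit on DNA together with retinoid X receptors, and is cleared by CYP26 enzymes. In mammary epithelium ALDH activity has been used to enrich progenitor cells, and ALDH1A3 is among the enzymes held to contribute to it.

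The receptors recognise direct repeats of a hexamer. The classical form, DR5, has 5 bases between the repeats, and it was searched on both strands as a hexamer, then NNNNN, then a hexamer. The hexamer could be the consensus AGGTCA or, as a second form, AGTTCA, with the form GGGTCA and the form GGTTCA allowed as well. RefSeq windows of 300 bases (build GRCm38.p6), from 250 bases before to 50 after an annotated gene start, were available for 7 of the 9 genes and for 59 genes of the pathway lists in all, members included. Aldh1a3 and Crabp2 had no window and were not searched. DR5 was found in 0.0974% of all 32851 windows. It was found at 2 of these 59 genes, which hold 79 of the windows: Rarb and Cyp26a1, a further retinoic acid hydroxylase gene. Both are textbook targets of retinoic acid, so these matches are a description of known sequence. A spacing of 2 bases was found in 0.268% of windows and at 0 of the 59 genes. The 120 bases before the start are shown for these genes, because they carry the receptor's recognition sequence, and for Cyp26b1, because its level differed between the adult groups; capitals mark DR5.
Rarb, chr14:16575477-16575596, minus strand: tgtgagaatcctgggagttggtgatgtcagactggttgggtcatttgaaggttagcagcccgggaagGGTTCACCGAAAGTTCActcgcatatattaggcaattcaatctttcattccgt
Cyp26a1, chr19:37697688-37697807, plus strand: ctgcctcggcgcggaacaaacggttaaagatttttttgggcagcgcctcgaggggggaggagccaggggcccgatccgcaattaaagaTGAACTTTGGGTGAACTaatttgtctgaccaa
Cyp26b1, chr6:84593811-84593930, minus strand: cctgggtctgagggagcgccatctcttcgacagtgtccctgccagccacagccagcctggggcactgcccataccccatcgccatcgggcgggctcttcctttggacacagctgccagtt
The repeat lies 53 to 37 bases before the Rarb start and reads along the gene. It lies 32 to 16 bases before the Cyp26a1 start and reads on the opposite strand. The window of Cyp26b1 holds no DR5 match by these letters.

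Values are log2 of the deposited intensity, and intensities of different probe sets are not comparable with each other, so levels are compared only between arrays. Array medians ran from 5.05 to 5.08. The background level was set at 4.59, the 95th percentile of 82 probe sets of olfactory, vomeronasal and trace amine receptor genes; a wider set of 40 genes of other organs gave 5.92. Limma called 1165 of 17096 genes, luminal against basal, which is 6.81% of those tested, at a Benjamini-Hochberg adjusted p under 0.05 and a difference of at least 2-fold. Of all genes tested 3.57% were called higher in luminal and 3.24% higher in basal cells. The basal markers checked were all called higher in basal cells (9 of 9 measured), and 6 of 10 luminal markers were called higher in luminal cells. Krt8, whose promoter drove the luminal label, differed by 0.40 ± 0.12 (SE; limma adjusted p = 0.0750) and was not called. Ptprc, the pan-leukocyte antigen gene, lay between 2.73 and 3.18 on the 4 adult arrays, below background. Of the 9 measured leukocyte markers, 7 nevertheless lay above background on an adult array and 0 were called in limma (2 with an unadjusted p under 0.05). Their summed level on the log2 scale was 8.44 and 9.02 in luminal and 9.14 and 9.45 in basal arrays, and their part in the results was not tested. Krt5 was high in basal arrays (12.03 and 12.15) and lower in luminal arrays (9.13 and 9.56), with the embryonic columns between them (10.19, 11.02 and 10.11). These are sorted bulk populations, in which fewer cells of a type and less RNA per cell cannot be told apart.

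Among the retinoid genes, Aldh1a3, a synthesis gene, was 3.50-fold higher in luminal cells, and Cyp26b1, a breakdown gene, was 2.13-fold higher in basal cells. The calls were not equally firm: Aldh1a3 was called under all 15 alternative settings, and Cyp26b1 under 8 of 15, with its call lost in 3 of the 4 fits that left out an adult array. The Aldh1a3 call was itself close to the threshold in the fit over all 7 arrays (limma adjusted p = 0.0445). The same held with an offset of 32 before log2 (limma adjusted p = 0.0489). Settings with a lower or no fold minimum reuse the reported fit, so a gene called as reported stays called in them. The other measured members, Aldh1a1, Aldh1a2, Crabp1, Crabp2, Rara and Rarg, were not called. The 2 called of 8 measured stand beside 6.81% of all genes, a set too small for the share itself to be read. Over the 8 genes the median difference, luminal minus basal, was 0.08, against 0.02 over all genes tested.

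**Figure D1:**
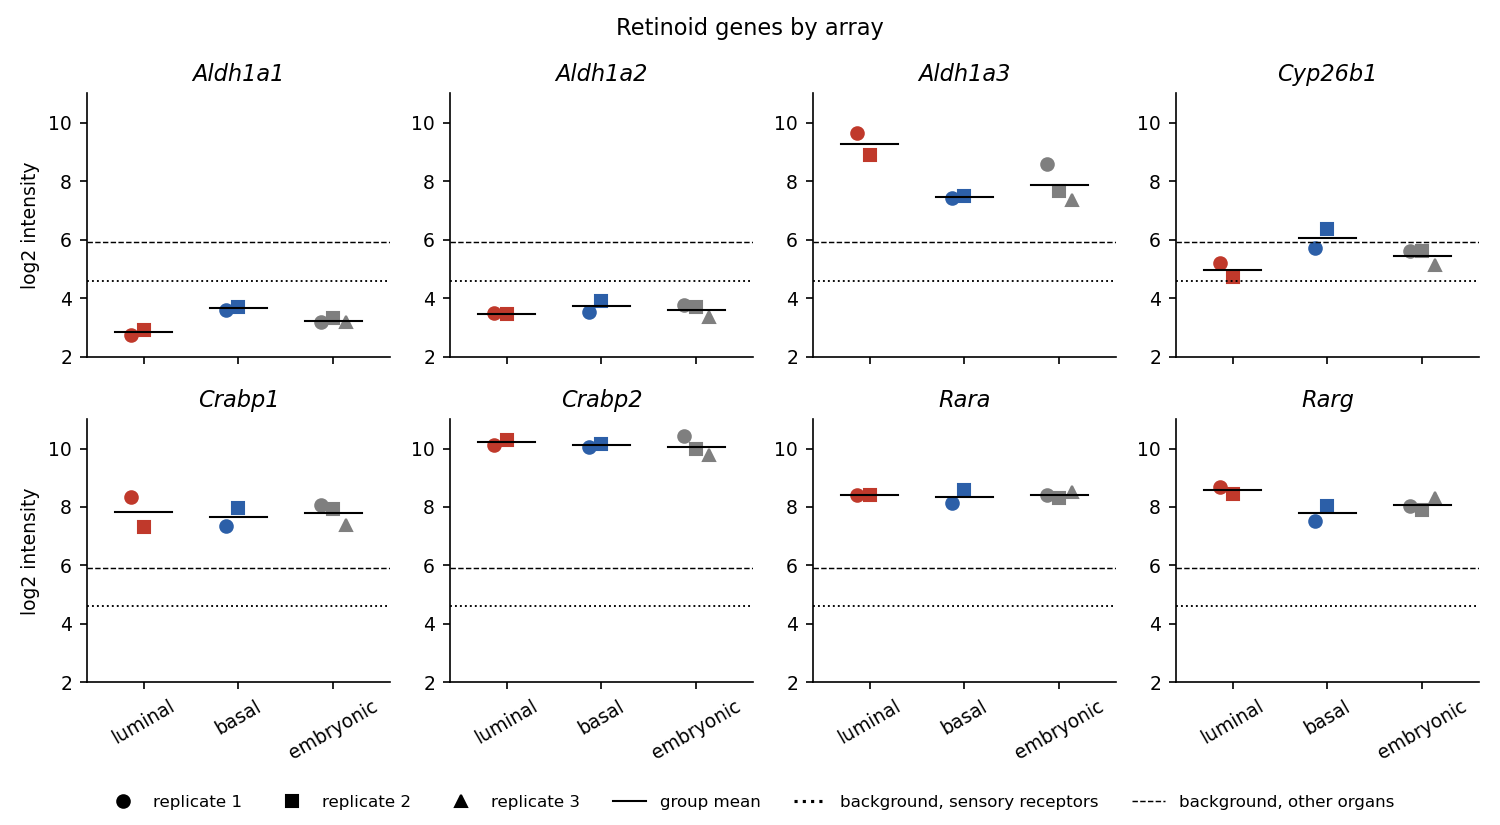
Log2 intensity (vertical axis) of the 8 measured retinoid genes on each array, by group; points are arrays, with the marker giving the replicate, bars are group means, and the dotted and dashed lines are background levels of 4.59 and 5.92. Both luminal points of Aldh1a3 (9.65 and 8.90) lie above both basal points, and Aldh1a1 and Aldh1a2 lie under both lines on every array.

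Aldh1a3 encodes a retinaldehyde dehydrogenase that forms retinoic acid. Its log2 intensity was 9.65 and 8.90 on the luminal arrays, 7.44 and 7.49 on the basal arrays and 8.59, 7.65 and 7.34 in the embryonic columns. Both luminal arrays lay above both basal arrays, which were nearly equal, while the luminal arrays lay 0.75 apart from each other. The difference, luminal minus basal, was 1.81 ± 0.25 (SE, n = 2 and 2 arrays, 95% interval 1.19 to 2.43, limma adjusted p = 0.0104). By its size Aldh1a3 ranked 64th among all 17096 genes in the luminal direction. Leaving out each adult array in turn gave differences of 1.43 to 2.18, with limma adjusted p from 0.00984 to 0.0342.

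All 3 probe sets of Aldh1a3 were called when every probe set was tested on its own, where 5.99% of 28895 probe sets were. Probe set 1427395_PM_a_at gave 9.19 and 8.71 in luminal and 7.53 and 7.21 in basal arrays, a difference of 1.58 ± 0.21 (SE; limma adjusted p = 0.0111). Probe set 1448789_PM_at gave 9.22 and 8.50 against 6.97 and 6.78, a difference of 1.98 ± 0.25 (limma adjusted p = 0.0103). In each of the 3 probe sets luminal replicate 1 was the higher luminal array and the groups did not overlap. They read the same RNA, so they are repeat readings and not replicates of the cells.

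**Figure D2:**
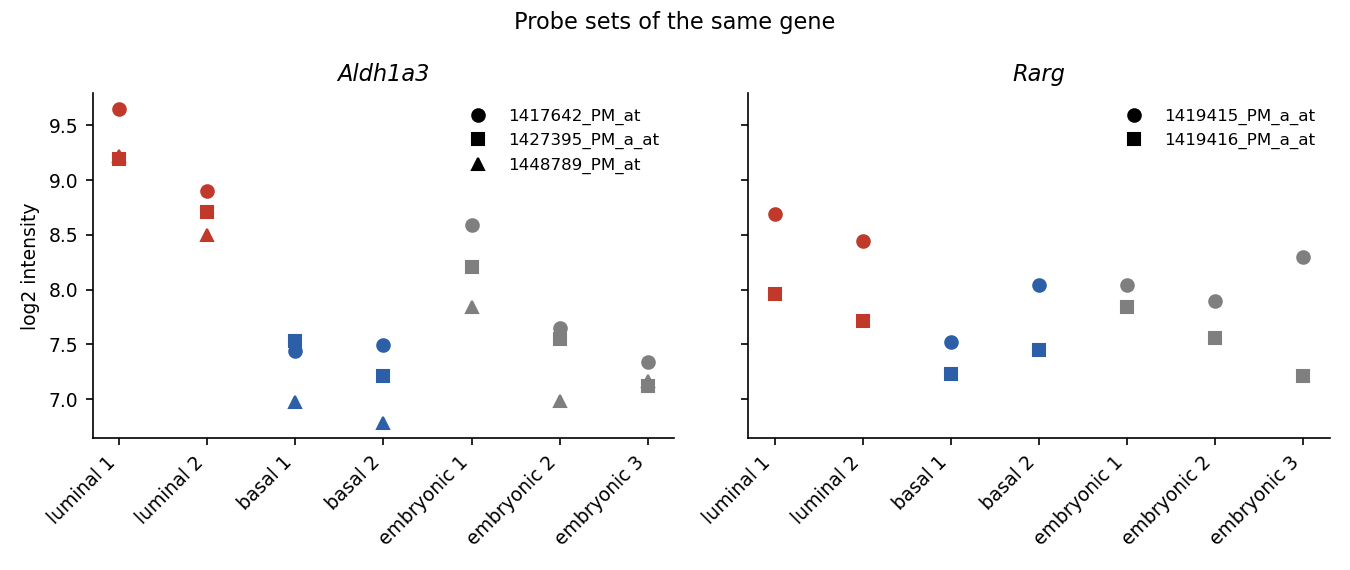
Log2 intensity (vertical axis) of each probe set of Aldh1a3 and Rarg on the 7 arrays; marker shapes are probe sets and colours are groups. The 3 Aldh1a3 probe sets keep luminal arrays above basal arrays, and the Rarg probe sets part on embryonic replicate 3, at 8.30 and 7.21.

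Of 10 measured markers of luminal progenitor and secretory cells, Kit, Elf5 and Ltf were called higher in luminal cells, where 3.57% of all genes were, and 0 in basal cells. Their median difference was 0.72, and none of the 10 lay below background on all adult arrays. Lcn2 (-0.05), Wap (0.11) and Mfge8 (0.20) had overlapping groups. Their summed intensity, on the log2 scale, was 11.93 and 11.64 in luminal arrays and 11.31 and 11.44 in basal arrays. Most of this list was higher on luminal replicate 1, as was Aldh1a3. Its sum was higher there, and its median of luminal replicate 1 minus replicate 2 was 0.20. The exceptions were Kit (5.32 and 5.52) and Elf5 (6.50 and 6.82), which were higher on luminal replicate 2. Of the hormone receptor positive luminal markers, 6 of 6 were called higher in luminal cells, with summed levels of 11.78 and 11.80 against 9.84 and 10.22. These did not part the luminal arrays as Aldh1a3 did. The part of cell composition in the Aldh1a3 difference was not tested.

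The genes whose centred values lay closest to those of Aldh1a3 over the 4 adult arrays, among 11953 genes above background, were Adam8, Cxcl17 and Pkp2. Adam8 encodes a membrane metalloprotease and differed from Aldh1a3 by a root mean square of 0.03, with luminal values of 7.49 and 6.77 and basal values of 5.23 and 5.30. The distance was 0.07 for the chemokine gene Cxcl17 and 0.08 for the plakophilin gene Pkp2, whose basal values of 4.21 and 4.17 lay below background, so that it passed that filter through its luminal arrays. With 4 arrays this likeness is a description only.

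The other ALDH1A enzymes were near the floor of the arrays. Aldh1a1 read 2.74 and 2.92 in luminal, 3.59 and 3.71 in basal and 3.17, 3.31 and 3.17 in embryonic columns, below both background levels everywhere. Its difference of -0.82 ± 0.13 had a limma adjusted p of 0.0153 but was under 2-fold, and a difference between values below background has no sure size. By adjusted p alone it was among 3 of the 8 members that passed, against 16.8% of all genes. Aldh1a2 read 3.50 and 3.44 in luminal and 3.53 and 3.90 in basal arrays (difference -0.24 ± 0.16, limma adjusted p = 0.380). For these genes the data do not separate low expression from a probe set that responds poorly.

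Cyp26b1, which encodes a retinoic acid hydroxylase, read 5.20 and 4.73 in luminal arrays, 5.72 and 6.38 in basal arrays and 5.60, 5.60 and 5.15 in the embryonic columns. Both basal arrays were higher than both luminal arrays, and the arrays of each group lay about as far apart as the gap between the groups, which was 0.52 from the higher luminal to the lower basal array. The difference was -1.09 ± 0.27 (SE, n = 2 and 2 arrays, 95% interval -1.75 to -0.43, limma adjusted p = 0.0447). This call was close to the threshold and was lost without basal replicate 2 (-0.76, limma adjusted p = 0.0614), without luminal replicate 1 (-1.32, 0.105) and without luminal replicate 2 (-0.85, 0.188), as well as in the fit over all 7 arrays (limma adjusted p = 0.0546). Luminal values and basal replicate 1 lay between the background levels of 4.59 and 5.92, so the fold is not exact.

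Fibroblast and endothelial marker lists had medians on the basal side. In limma 9 of 10 endothelial and 5 of 10 fibroblast markers had an unadjusted p under 0.05, each on the basal side. The share of all genes with such a p was not computed and is at least the 16.8% that passed after adjustment. Groups did not overlap for 9 endothelial and 6 fibroblast markers, as for 59.2% of all genes. Few members were called, where 3.24% of all genes were called higher in basal cells. Of 10 fibroblast markers 1 was called, higher in basal cells, with a median difference of -0.91 and summed levels of 11.43 and 12.13 in luminal and 12.63 and 12.91 in basal arrays; Dcn (0.05) and Col1a2 (0.00) had no difference toward basal cells, and 1 of the 10 lay below background on all adult arrays. Of 10 endothelial markers 1 was called, higher in basal cells (median -1.26), with summed levels of 8.63 and 9.48 in luminal and 9.94 and 10.68 in basal arrays. Basal replicate 2 was the highest array for Cyp26b1 and for both lists. Luminal replicate 2, in contrast, was above luminal replicate 1 for both lists and below it for Cyp26b1. The part of these cells in the Cyp26b1 difference was not tested. The nearest genes to Cyp26b1 over the 4 adult arrays were Rnf128, an E3 ubiquitin ligase gene (root mean square distance 0.04), the T-cadherin gene Cdh13 (0.09) and the tetraspanin gene Tspan2 (0.09).

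**Figure D3:**
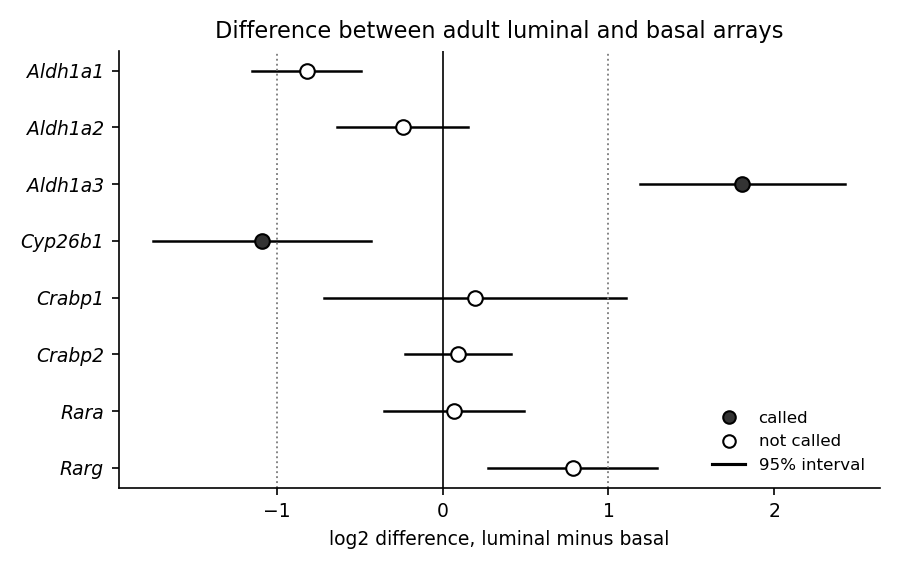
Log2 difference, luminal minus basal (horizontal axis), for the 8 measured genes; points are limma estimates from 2 and 2 arrays, bars are 95% intervals, filled points are called, and dotted lines mark a 2-fold difference. The interval of Aldh1a3 runs from 1.19 to 2.43 and that of Cyp26b1 from -1.75 to -0.43; the intervals of Aldh1a2, Rara, Crabp1 and Crabp2 span 0.

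The binding proteins did not separate the adult groups. Crabp2, which delivers retinoic acid to the receptors, read 10.13 and 10.29 in luminal, 10.06 and 10.17 in basal and 10.41, 9.98 and 9.79 in embryonic columns. The adult groups overlapped, and the difference was 0.09 ± 0.13 with a 95% interval of -0.23 to 0.41 (limma adjusted p = 0.703), which leaves out a 2-fold difference in either direction. Crabp1, the related carrier, read 8.34 and 7.33 in luminal and 7.34 and 7.95 in basal arrays. Its luminal arrays differed from each other by 1.01, more than the groups did, and the difference of 0.19 ± 0.37 had an interval of -0.72 to 1.10 (limma adjusted p = 0.793), so that a 2-fold difference toward luminal cells is within it. Its sign turned without basal replicate 1 (-0.11) and without luminal replicate 1 (-0.31).

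Of the receptors, Rara was even and Rarg leaned to luminal cells without being called. Rara read 8.42 and 8.43 in luminal and 8.15 and 8.57 in basal arrays, with overlapping groups and a difference of 0.07 ± 0.17 (95% interval -0.35 to 0.49, limma adjusted p = 0.851). That difference was -0.02 after quantile normalization and -0.14 without basal replicate 1. Rarg, the retinoic acid receptor prominent in epidermis, read 8.69 and 8.44 in luminal, 7.52 and 8.04 in basal and 8.04, 7.89 and 8.30 in embryonic columns. Its adult groups did not overlap, as for 59.2% of all genes, and the difference was 0.78 ± 0.21 (95% interval 0.27 to 1.30, limma adjusted p = 0.0551). The second Rarg probe set, 1419416_PM_a_at, read 7.96 and 7.71 against 7.23 and 7.45, a difference of 0.50 ± 0.15 (limma adjusted p = 0.0872). Without basal replicate 2, which held the higher basal value of both probe sets, Rarg was called (1.05, limma adjusted p = 0.0108). In that fit Rarg and Aldh1a3 were the members called and Cyp26b1 was not.

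Beyond the 8 genes, 66 further genes were measured in lists of the pathway and of related enzymes, and 4 were called higher in luminal and 2 in basal cells, against 6.81% of all genes in either direction. Their median difference was -0.01. In the list of retinol uptake, binding and storage 0 of 12 measured genes were called in limma and 0 had an unadjusted p under 0.05. Stra6, the receptor for the retinol carrier of the blood, read 5.09 and 5.03 in luminal and 5.32 and 5.39 in basal arrays (-0.29 ± 0.12), and Stra6l had a difference of 0.15 and lay below background.

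Enzymes that interconvert retinol and retinaldehyde gave 1 called gene of 15 measured, a share near the 6.81% of all genes, and 4 with an adjusted p under 0.05, where 16.8% of all genes had one; neither count sets the list apart. Akr1b8, an aldo-keto reductase gene, read 5.82 and 5.70 in luminal and 4.27 and 4.80 in basal arrays, a difference of 1.22 ± 0.20 (limma adjusted p = 0.0154). Its basal mean, 4.53, lay below background, so the size is not exact, and the call was lost without luminal replicate 1, without luminal replicate 2 and without basal replicate 1. The retinol dehydrogenase genes Rdh1 (-0.07) and Rdh5 (-0.15) were not called. Chosen after their values were seen, 3 more genes had an adjusted p under 0.05 in limma with under 2-fold differences: Rdh11 (-0.94 ± 0.17) and Rdh13 (-0.72 ± 0.18), retinaldehyde reductase genes, were on the basal side and Adh5 (0.78 ± 0.14) on the luminal side. Rdh11 read 8.53 and 8.39 in luminal and 9.20 and 9.60 in basal arrays, well above background.

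For breakdown beside Cyp26b1, 0 of 2 measured genes were called in limma and 1, Cyp26a1, had an unadjusted p under 0.05. Cyp26a1, whose DR5 element is shown above, read 4.01 and 3.77 in luminal and 4.39 and 4.18 in basal arrays, below background on each, with a difference of -0.40 ± 0.15 (limma adjusted p = 0.138). Cyp4v3 had a difference of 0.04. Among receptor partners and coregulators 0 of 9 were called in limma, where 6.81% of all genes were, and 4 had an unadjusted p under 0.05. The share of all genes under that unadjusted cutoff was not computed. It is at least the 16.8% that passed after adjustment, so the unadjusted counts of these lists are not read as a trait of them. The retinoid X receptor genes Rxra, at 7.69 and 7.80 in luminal and 7.71 and 8.14 in basal arrays (-0.18 ± 0.18), and Rxrb (0.37 ± 0.15) were not called. Of the 3 Rxra probe sets, that with the lowest adjusted p leaned further to basal cells (-0.72 ± 0.16, limma adjusted p = 0.0384), under 2-fold. The mean of the Rxra probe sets gave -0.35 ± 0.13 (limma adjusted p = 0.132).

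Genes known to respond to retinoic acid did not move one way. Of 17 measured, 2 were called higher in luminal and 1 in basal cells, with a median difference of -0.11. Of all genes tested 3.57% were called higher in luminal and 3.24% higher in basal cells, and the list is too small for its share to be read. Of the 17 genes, 6 lay below background on all adult arrays, where a difference has no sure size. Foxa1, a transcription factor gene of hormone receptor positive luminal cells, read 7.28 and 7.21 in luminal and 4.31 and 4.76 in basal arrays and differed by 2.71 ± 0.18 (limma adjusted p = 0.00247). Its basal mean, 4.54, lay below background, so the size of that difference is not exact. The epithelial transcription factor gene Elf3 differed by 1.00 ± 0.18 (limma adjusted p = 0.0201), at the 2-fold limit. Ret, the GDNF receptor kinase gene, read 4.74 and 4.96 in luminal and 6.01 and 6.16 in basal arrays, a difference of -1.24 ± 0.14 (limma adjusted p = 0.00651). The luminal values of Ret lay between the background levels of 4.59 and 5.92, so its fold is not exact. With an adult array left out, Foxa1 was called each time, Ret was not without luminal replicate 1, and Elf3 was called only without basal replicate 2. Rarres1 (-0.25 ± 0.13) and Rarres2, the chemerin gene (-0.88 ± 0.27, limma adjusted p = 0.0786), were not called. The list holds genes with many other regulators, Foxa1 being also a luminal marker here.

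Among 16 other aldehyde dehydrogenase genes, 1 was called in each direction, with a median of 0.24. Of all genes tested 3.57% were called higher in luminal and 3.24% higher in basal cells, and the list is too small for its share to be read. Aldh3a2, the fatty aldehyde dehydrogenase gene, read 6.91 and 6.95 in luminal and 5.67 and 5.60 in basal arrays, a difference of 1.29 ± 0.12 (limma adjusted p = 0.00416). Aldh1l2, a mitochondrial folate enzyme gene, read 5.03 and 5.62 against 6.44 and 6.74, a difference of -1.27 ± 0.23 (limma adjusted p = 0.0199), and was not called without luminal replicate 1, while Aldh3a2 was called with any adult array left out. The basal values of Aldh3a2 and the luminal values of Aldh1l2 lay between the background levels of 4.59 and 5.92, so neither fold is exact. Aldh1a7, a close copy of Aldh1a1 whose transcripts the probes may share (0.72), and Aldh1b1 (0.29) were not called, and Aldh1a7 lay below background on every adult array. Aldh3a1, singled out after its values were seen, read 8.47 on luminal replicate 1 and 5.69 on luminal replicate 2, against 5.11 and 5.12 in basal cells, so its difference of 1.97 ± 0.83 rested on 1 array (limma adjusted p = 0.174).

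**Figure D4:**
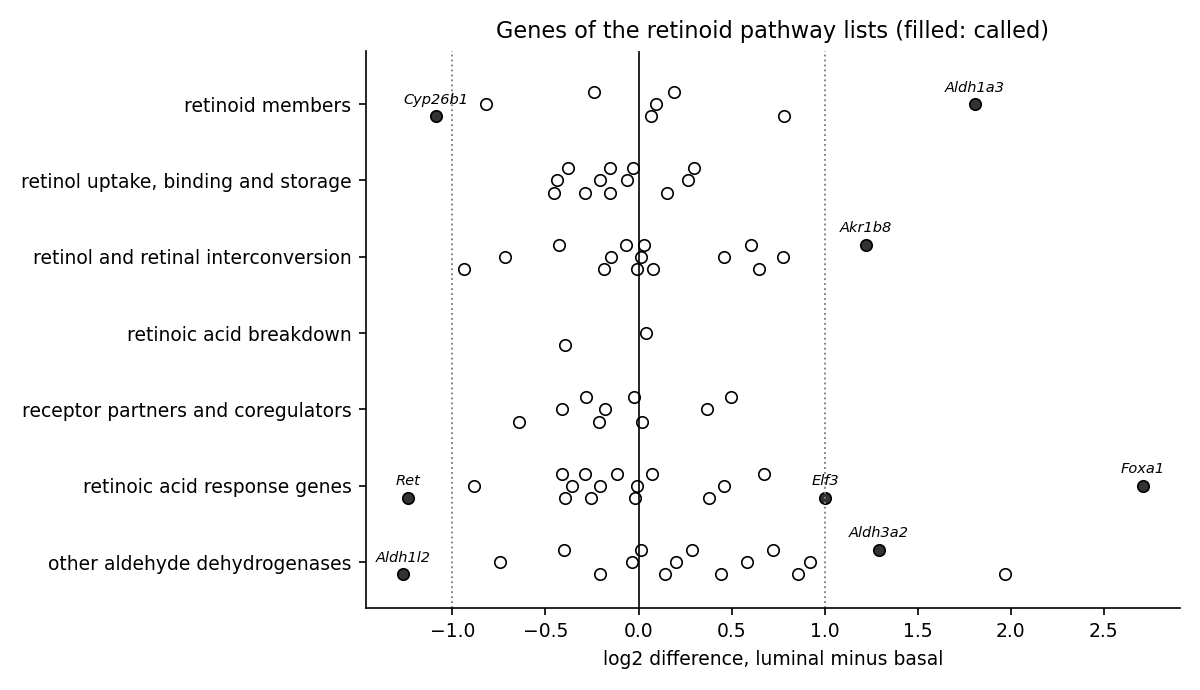
Log2 difference, luminal minus basal (horizontal axis), of every measured gene of the retinoid lists (rows); each point is a gene, filled and named where called, and dotted lines mark 2-fold. Points lie on both sides of 0 in every list, with Foxa1 at 2.71 the farthest.

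In the embryonic columns the retinoid genes sat close to the adult mean. Embryonic minus adult means lay between -0.10 and 0.06 for 7 of the 8 genes and at -0.51 for Aldh1a3. Over all 45033 probe sets that difference had an SD of 0.09, against 0.49 for luminal minus basal, and embryonic replicates 1 and 2 held identical values for 37.6% of probe sets, Cyp26b1 among them, where the luminal pair did for 0.115% and the basal pair for 0.209%. No test of embryonic against adult cells is therefore given. Aldh1a3 had the widest embryonic range of the 8 genes, 1.24, from 8.59 on replicate 1 to 7.34 on replicate 3, the array of 813 cells. Its mean there, 7.86 ± 0.65 (SD, n = 3), lay 0.39 above the basal and 1.42 below the luminal mean, and replicate 3 lay below both basal arrays.

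**Figure D5:**
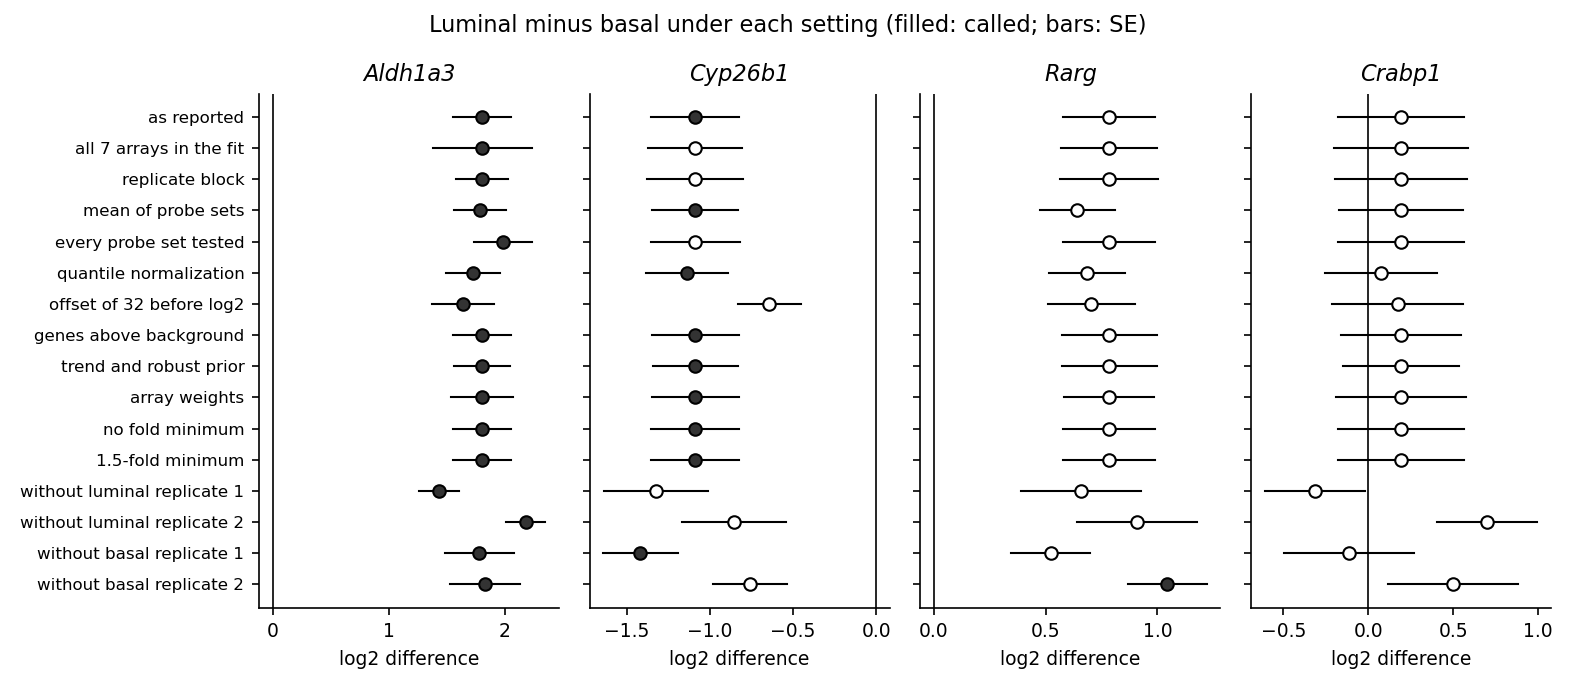
Log2 difference, luminal minus basal (horizontal axes), of Aldh1a3, Cyp26b1, Rarg and Crabp1 as reported and under each alternative setting (rows); bars are SEs and filled points are called. Aldh1a3 is called in every setting shown, between 1.43 and 2.18, and Cyp26b1 in 8 of the 15 alternatives. Settings that only lower the fold minimum could not lose a call.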

How the data were processed

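Total RNA of sorted cells was amplified and hybridised to arrays, per the labels' protocols. The authors deposited probe set intensities on a linear scale; the tools listed per the submitters' processing notes are RMA and affy, with settings and summarisation runs not given in the sources used here. Log2 of the deposited intensity was taken. The table had 45141 rows, of which 4 had no values and 104 were control probe sets, and these were not used; 28895 of 45033 probe sets had 1 symbol, 551 several and 15587 were unlisted. No filter on low values was set. Limma 3.58.1 (R 4.3.3) fitted luminal and basal means to the 4 adult arrays with eBayes (2 residual and 3.73 prior degrees of freedom). The embryonic arrays were kept out of that fit because of their ties. Alternatives are listed in the closing section. The fit was tested on simulated luminal and basal arrays in which 200 of 17096 genes differed: 60% of log2 changes of 1.5 and 94% of changes of 3 were recovered, with 1 false call among 155. The members, lists and tests were chosen with earlier results of these data known; the background genes and the DR5 search were chosen after the values were seen. Genes to name were set by a rule: all members, up to 4 called genes per direction and 2 uncalled genes of each pathway list. The rule added the 3 nearest genes of each called member and some markers, Krt5, Krt8, Ptprc and Sox10 among them. Kit, Elf5, Ltf, Lcn2, Wap, Mfge8, Dcn and Col1a2 fell outside it and were named with their values known. The same holds for Rdh11, Rdh13, Adh5 and Aldh3a1. The number of arrays limits the precision. Figures used matplotlib 3.10.9.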

Additional observations from a re-analysis of the deposited data

How the results depend on the processing

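Aldh1a3 was called under all 15 alternatives, with differences of 1.43 to 2.18, and Cyp26b1 under 8 of 15 (-1.42 to -0.64). These counts include the settings with a lower or no fold minimum, which reuse the reported fit and could not lose a call. Of 8 members, 2 were called as reported and 1 was in the fit over all 7 arrays, with every probe set tested and with an offset of 32 before log2; leaving out 1 adult array gave 1 to 2. Of the 66 pathway genes 6 were called, 1 with the offset, 12 with no fold minimum and 12 at a 1.5-fold minimum, and 2 to 8 with an array left out, the lowest without luminal replicate 1. Over all genes 1165 were called, 505 with the offset, 2879 with no fold minimum and 2603 at 1.5-fold, and 519 to 1443 with an array left out, the lowest without luminal replicate 1. The fits that leave an array out hold 1 array in a group, which is assumed to vary like the others; the cause of these shifts was not tested. Uncalled differences that changed sign were that of Rara, at -0.024 after quantile normalization and -0.14 to 0.28 with an array left out, and, with an array left out, those of Crabp1 (-0.31 to 0.70), Cyp4v3 (-0.26 to 0.33), Rxra (-0.40 to 0.035), Ptprc (-0.31 to 0.14) and Sox10 (-0.55 to 0.063).

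Whether luminal and basal arrays of the same replicate number were handled together cannot be told from the numbers alone. Their deviations correlated at 0.04 over probe sets, a value that cannot exclude a small shared effect. With the replicate block 1208 genes were called over all genes, 1 member (Aldh1a3) and 6 pathway genes. Levels near background limit what can be said of Aldh1a1, Aldh1a2, Cyp26a1, Cyp26b1, Foxa1, Akr1b8, Ret, Aldh3a2 and Aldh1l2.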
